A study of Mus musculus with 3 samples.

Results

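The genes described here are 10 genes of the unfolded protein response and the integrated stress response, Atf4, Ddit3, Trib3, Chac1, Asns, Sesn2, Hspa5, Xbp1, Herpud1 and Ddit4, out of 22535 genes in the deposited tables. They were given as a list of gene names, chosen with earlier results of these data known. Their molecules were counted by cell class and by library, in cells that had 200 or more genes with a molecule and of whose molecules no more than 50% were mitochondrial, and cells with at least 3 molecules of Havcr1 were kept apart. The 3 single-cell libraries came from the kidney cortex of WT1CreERT2; Rosa26-tdTfl/+ mice, in which tamoxifen turns on the red protein tdTomato (tdT) in cells that express Wt1, mainly podocytes and some parietal epithelial cells (PECs), and in the cells that descend from them. After sham surgery, tdT+ and tdT- cells were mixed in the library called Sham. Severe ischemia-reperfusion injury (IRI) of both kidneys preceded the others by 24 h, of which IRI24h-TDN is again a mixture and IRI24h-TD was made from tdT+ cells without tdT- cells. The mice were adult, cells of several kidneys were pooled for each library, and whether the 2 libraries after IRI came from the same animals was not stated.

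Proteins that enter the endoplasmic reticulum (ER) are folded there with the help of chaperones. When unfolded protein builds up, 3 sensors in the ER membrane respond. PERK phosphorylates the translation factor eIF2alpha, IRE1 splices the mRNA of Xbp1, and ATF6 moves to the Golgi and is cut into a transcription factor. Other kinases phosphorylate eIF2alpha when amino acids or haem run short or when viral RNA is present, and this common step is called the integrated stress response. It lowers general protein synthesis but favours translation of Atf4 mRNA, so that the level of Atf4 mRNA does not report the ATF4 protein. In the kidney, the proximal tubule is the segment most exposed to ischemia, and injured proximal tubule epithelial cells (PTECs) switch on Havcr1, which encodes the injury marker KIM-1.

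Each library was deposited as counts of unique molecular identifiers (UMIs), which mark single captured RNA molecules, and the totals were 69980443 (Sham), 92355554 (IRI24h-TDN) and 93470709 UMIs (IRI24h-TD). Of 30008 barcodes, 26760 were kept, with a median of 7746 to 9529 UMIs per library. They formed 28 clusters and 12 classes, named with the ending "-like" because they were rebuilt from marker genes, and differences from the cell groups of the study can come from that. One cluster of 490 cells, led by Col1a1 and Mgp, stayed without a name. Libraries shared 102 to 114 barcodes in each pair, about 1% of each library. Each condition had 1 library, so that differences could not be tested against replicates. The level of a gene is its UMIs for every 1000000 UMIs of the cell group (CPM), intervals are exact 95% intervals that cover counting error only, and fewer cells with a transcript and fewer molecules per cell cannot be told apart in such sums. A gene was measured in a comparison where both groups together held at least 20 of its UMIs, and it passed 2-fold where the levels differed by at least 2 times with at least 20 UMIs in the higher group. In the GENCODE annotation of GRCm38 the members lie at chr15:80255184-80257541 (Atf4), chr10:127290774-127296288 (Ddit3), chr2:152337422-152344032 (Trib3), chr2:119351229-119354381 (Chac1), chr6:7675169-7693254 (Asns), chr4:132492032-132510501 (Sesn2), chr2:34771970-34777547 (Hspa5), chr11:5520659-5525893 (Xbp1), chr8:94386438-94395377 (Herpud1) and chr10:59949669-59951834 (Ddit4).

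Podocyte-like cells numbered 4591 in Sham, against 5300 in IRI24h-TDN and 9073 in IRI24h-TD, and they held all 10 podocyte markers, at a summed 40170, 35900 and 37070 CPM. PEC-like cells numbered 620, 224 and 264, and their 10 PEC markers summed to 5682, 6733 and 9385 CPM, beside 7315, 2007 and 2602 CPM for the 16 PTEC markers. PTEC-like cells outside the Havcr1-positive group numbered 1032 in Sham but 37 in IRI24h-TDN and 48 in IRI24h-TD, and their PTEC markers summed to 67480, 12220 and 4667 CPM. Podocyte markers reached 11310 CPM in the 48 PTEC-like cells of IRI24h-TD, whose median depth was 1494 UMIs, so that their values stand here only as values. Distal convoluted tubule-like cells numbered 58 in Sham and 482 in IRI24h-TDN, and their own markers summed to 8519 and 3751 CPM. Ascending limb markers were there at 5435 and 899 CPM, and connecting tubule markers at 3494 and 637 CPM. Ascending limb-like cells had 23200 and 4939 CPM of their own markers. The part of this makeup in the levels of these classes was not tested. Havcr1-positive cells numbered 5, 159 and 61. Podocyte markers were also high in other classes, and above the own markers of some small ones. They reached 13610 CPM in endothelial-like cells of Sham, beside 13400 for their own markers, and 2909 beside 2160 in lymphocyte-like cells of Sham. In neutrophil-like cells of IRI24h-TDN they reached 15920 beside 9074. In Sham and IRI24h-TDN they were at 6110 and 3757 CPM in monocytic-like cells. Distal convoluted tubule-like cells had 4603 and 2661 CPM, and mesangial-like cells 3814 and 3906 CPM. Their part in the levels and orders given for any class was not tested.

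The regions just before the transcription start of 5 members are shown. All but that of Trib3 hold letters by which the arms of the response are usually told apart. That of Trib3 holds only the shortest of the motifs named in the next paragraph. Each is the 250 bases before the start of the RefSeq transcript on GRCm38.p6, 5′ to 3′ on the strand of the gene, and capitals mark matches to the motifs named in the next paragraph. All 10 members were matched by symbol in that table. The positions are chr6:7693210-7693459 for Asns (minus strand), chr2:119350992-119351241 for Chac1 (plus), chr2:152344061-152344310 for Trib3 (minus), chr2:34771840-34772089 for Hspa5 (plus) and chr8:94386179-94386428 for Herpud1 (plus).
Asns: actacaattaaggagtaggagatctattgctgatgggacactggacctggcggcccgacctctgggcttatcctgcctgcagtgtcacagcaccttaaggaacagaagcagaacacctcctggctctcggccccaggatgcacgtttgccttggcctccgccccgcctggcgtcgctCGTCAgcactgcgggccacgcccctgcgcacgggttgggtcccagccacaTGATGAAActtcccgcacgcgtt
Chac1: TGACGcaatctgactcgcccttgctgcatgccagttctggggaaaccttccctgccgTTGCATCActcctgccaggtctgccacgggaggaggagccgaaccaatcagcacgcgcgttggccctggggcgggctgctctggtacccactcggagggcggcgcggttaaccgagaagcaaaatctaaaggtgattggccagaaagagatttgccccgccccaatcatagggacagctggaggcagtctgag
Trib3: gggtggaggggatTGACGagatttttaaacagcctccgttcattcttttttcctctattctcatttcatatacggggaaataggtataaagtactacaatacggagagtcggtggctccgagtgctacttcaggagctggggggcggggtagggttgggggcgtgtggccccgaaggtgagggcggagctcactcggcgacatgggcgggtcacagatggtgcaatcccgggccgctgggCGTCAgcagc
Hspa5: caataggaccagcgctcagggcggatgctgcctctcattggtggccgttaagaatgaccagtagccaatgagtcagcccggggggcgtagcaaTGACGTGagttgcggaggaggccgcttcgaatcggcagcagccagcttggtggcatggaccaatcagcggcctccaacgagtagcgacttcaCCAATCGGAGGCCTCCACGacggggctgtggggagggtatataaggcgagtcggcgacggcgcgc
Herpud1: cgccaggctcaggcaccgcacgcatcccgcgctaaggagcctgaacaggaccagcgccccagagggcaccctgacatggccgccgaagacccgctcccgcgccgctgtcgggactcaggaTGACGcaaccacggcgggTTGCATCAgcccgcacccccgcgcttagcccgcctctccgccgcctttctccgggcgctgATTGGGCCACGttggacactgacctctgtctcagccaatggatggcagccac

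The motifs were searched on both strands in all 32851 promoters of that length. The core of the CARE (TGATGNAA), bound by ATF4 with C/EBP partners, was found in Chac1, Asns and Herpud1, or 3 of 10 members, against 3.45% of all promoters. The ERSE (CCAAT, 9 bases, CCACG), bound by ATF6 and NF-Y, was found in Hspa5 alone among the members, 65 to 47 bases before the start, and in 0.113% of all promoters. Herpud1 held the ERSE-II (ATTGGNCCACG), 52 to 42 bases before its start, which 0.0304% of promoters hold. The core of the UPRE (TGACGTG) was found in Hspa5 and in 1.65% of promoters, and the short core of the CRE (TGACG), which lies within the UPRE core, in 6 members and 17.8% of promoters. Ddit3, Sesn2, Xbp1 and Ddit4 had no match in this window. These matches are a description of letters and no measure of binding.

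In podocyte-like cells, the ER chaperone Hspa5 was lower in both libraries after IRI and Ddit4 was higher, while Atf4 differed by less. The level of Hspa5, which encodes BiP, the main chaperone of the ER lumen and the protein that holds the 3 sensors inactive, was 1873 CPM in Sham (71902 UMIs), against 971 in IRI24h-TDN (49115) and 939 in IRI24h-TD (81287). Both libraries after IRI were thus lower than Sham, at 0.518 of its level (0.512 to 0.524) and 0.501 (0.496 to 0.506), which falls just short of 2-fold. Both ratios use the same Sham library, and between the 2 libraries after IRI the ratio was 1.03 (1.02 to 1.046). The difference lay within clusters too: in the largest podocyte-like cluster Hspa5 was at 1794, 907 and 892 CPM, and across the 6 podocyte-like clusters with at least 20 cells in every library it was 1467 to 1993 CPM in Sham, 860 to 1172 in IRI24h-TDN and 812 to 1025 in IRI24h-TD. The summed level of 16 dissociation and immediate early genes was 23170, 33820 and 33520 CPM in that largest cluster, but 34720, 35370 and 36280 CPM in the second, where Hspa5 was 1993, 1028 and 1008 CPM. Their part in the result was not tested.

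Of the 9 members measured between IRI24h-TDN and Sham in podocyte-like cells, 1 passed 2-fold upward (Ddit4), beside 4.50% of 13434 genes measured, and 1 downward (Trib3), beside 9.50% of them. Between IRI24h-TD and Sham, Ddit4 and Chac1 passed 2-fold upward among 10 members, beside 4.66% of all genes, and none passed downward, beside 10.3%. The low counts of Trib3 (22, 12 and 34 UMIs in the 3 libraries) and Chac1 (2, 9 and 31) carry the calls of these 2 genes, which end where 50 UMIs are asked for, and that of Trib3 also ends without the cell that held most of its UMIs. The ratio of Trib3 was 0.414 (0.187 to 0.873) in IRI24h-TDN and 0.685 (0.389 to 1.23) in IRI24h-TD. That of Chac1 was 6.87 (1.75 to 59.3) in IRI24h-TD, with a share of cells that stayed under 0.3% in every library.

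**Figure D1:**
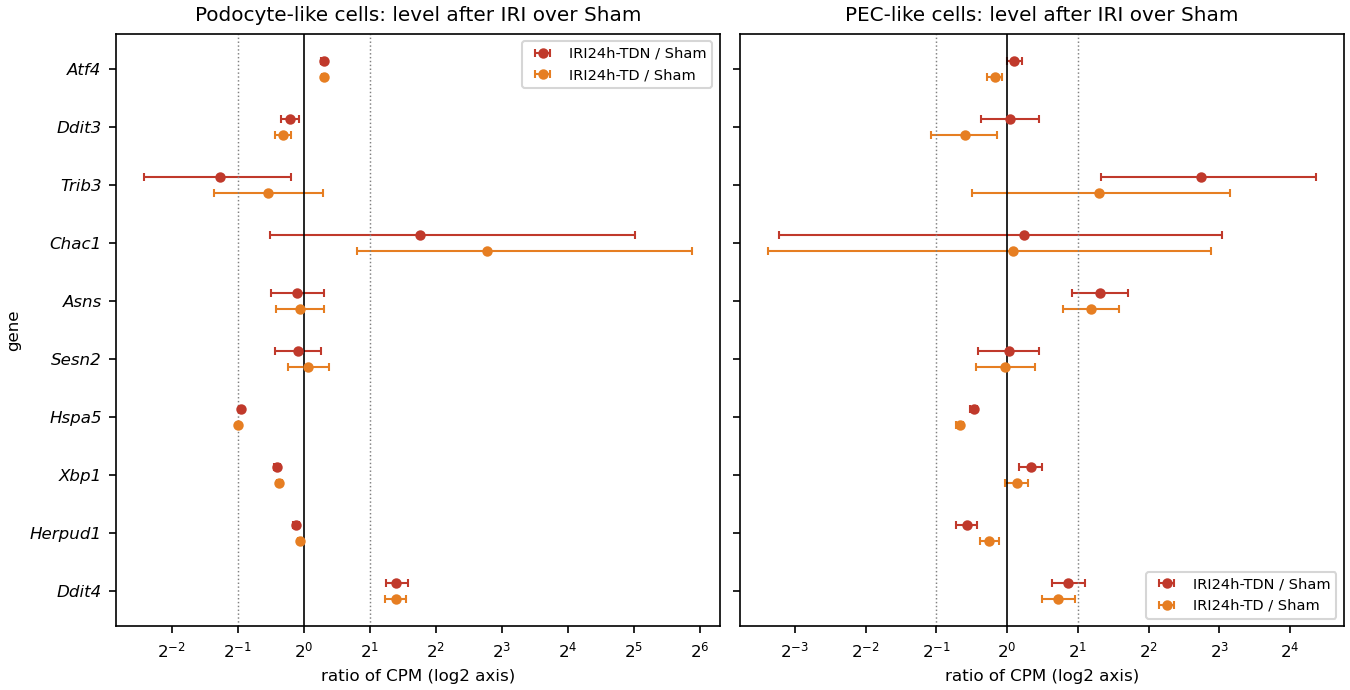
Ratio of the level in CPM after IRI to that in Sham for the 10 members in podocyte-like (left) and PEC-like cells (right), on a log2 axis, with exact 95% intervals for counting error and dotted lines at 2-fold. In podocyte-like cells Hspa5 lies near the lower dotted line in both libraries and Ddit4 beyond the upper one, and in PEC-like cells Asns lies beyond the upper line in both.

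The other members of the ER arms differed by less in podocyte-like cells. Xbp1, the transcription factor whose mRNA IRE1 splices, was at 213 CPM in Sham, against 161 in IRI24h-TDN and 165 in IRI24h-TD, with ratios of 0.756 (0.733 to 0.779) and 0.775 (0.754 to 0.797). Counts per gene do not separate its spliced from its unspliced form. Herpud1, which encodes a membrane protein of ER-associated degradation, was at 179.6, 165.3 and 173.7 CPM, with ratios of 0.920 (0.891 to 0.9502) and 0.967 (0.9398 to 0.995). Hence the 2 members were lower than Sham in both libraries after IRI by more than counting error, and by far less than Hspa5. Herpud1 overlaps the predicted gene Gm15890 on the opposite strand.

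Of 19 other genes for ER chaperones and folding enzymes, 4 passed 2-fold downward and none upward in podocyte-like cells of IRI24h-TDN, beside 9.50% and 4.50% of all genes, and the median log2 ratio was -0.57 against -0.08 over all genes. Sdf2l1, a partner of BiP, was at 63.6 CPM in Sham and 14.9 in IRI24h-TDN, Calr (calreticulin) at 1695 and 610 CPM, Hsp90b1 (GRP94) at 2458 and 928 CPM, and the disulphide isomerase Pdia6 at 439 and 206 CPM. IRI24h-TD gave the same counts, 4 downward and none upward, and a median of -0.58. Of 19 genes for ER degradation and export, Derl3 alone passed, downward, with 61 UMIs in Sham and 6 in IRI24h-TDN, and the median was -0.16. The 6 measured ER stress sensors held none past 2-fold and a median of -0.01. Ern1, which encodes IRE1, was at 22.8 CPM in Sham and 24.0 in IRI24h-TDN, and Eif2ak3, which encodes PERK, at 19.7 and 20.9 CPM.

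Across classes, Hspa5 was lower in IRI24h-TDN than in Sham by more than counting error in 11 of 12 classes and higher in 1. It passed 2-fold downward in distal convoluted tubule-like cells, at 1231 CPM in Sham (831 UMIs) and 422 in IRI24h-TDN (3030), a ratio of 0.343 (0.317 to 0.370). The 23 such cells of IRI24h-TD had 550 CPM, a ratio to Sham of 0.447 (0.362 to 0.546). Podocyte markers were at 6682 CPM in these 23 cells, beside 2969 CPM for their own markers, at a median of 5000 UMIs. In connecting tubule-like cells it was at 1143 and 638 CPM (0.558, 0.526 to 0.592), in monocytic-like cells at 3927 and 2562 CPM (0.652, 0.634 to 0.671), in intercalated-like cells at 1593 and 1048 CPM (0.658, 0.630 to 0.688) and in PEC-like cells at 1903 and 1369 CPM (0.719, 0.693 to 0.747). Ascending limb-like and endothelial-like cells were closer to Sham, at 0.860 (0.786 to 0.941) and 0.887 (0.808 to 0.974). Mesangial-like cells went the other way, at 1162 and 1310 CPM (1.13, 1.07 to 1.19). The highest levels of Hspa5 were those of monocytic-like cells in both libraries, followed by lymphocyte-like cells at 3250 and 2211 CPM, and the lowest were those of ascending limb-like cells in Sham (679 CPM) and distal convoluted tubule-like cells in IRI24h-TDN. In distal convoluted tubule-like cells Hspa5, Atf4 and Ddit4 were all lower. There 9 of 16 dissociation and immediate early genes also passed 2-fold downward, beside 4.93% of all genes, and none upward, beside 10.6%. Their median log2 ratio was -1.06. In monocytic-like cells 6 of these genes passed downward, beside 5.92% of all genes, and 1 upward, beside 11.3%, with a median of -0.81. Their part in these levels was not tested. All classes share the same libraries and podocyte markers were found in each, so that their directions are not independent results. The part of podocyte transcripts was not tested either.

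Xbp1 and Herpud1 were highest in lymphocyte-like cells, a cluster of 106 cells led by Igha, Igkc and Jchain, genes of antibody-secreting cells. There Xbp1 was at 1085 CPM in Sham and 889 in IRI24h-TDN, and Herpud1 at 891 and 940 CPM, and their intervals overlapped between the libraries. All other classes held at most 213 CPM of Xbp1 in Sham, the level of podocyte-like cells. From Sham to IRI24h-TDN, Xbp1 was higher by more than counting error in 5 of 12 classes and lower in 1, and Herpud1 higher in 1 and lower in 5, none of them past 2-fold. The largest ratio of Xbp1 was that of PTEC-like cells, 106 and 175 CPM (1.64, 1.25 to 2.12), and the smallest of Herpud1 that of PEC-like cells, 276 and 186 CPM (0.673, 0.608 to 0.744).

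Atf4, the transcription factor of the integrated stress response, was present in every class, at 174.5 to 452 CPM in Sham and 168 to 577 CPM in IRI24h-TDN. In podocyte-like cells it was at 317 CPM in Sham, against 391.5 in IRI24h-TDN and 393 in IRI24h-TD, with ratios of 1.24 (1.21 to 1.26) and 1.24 (1.21 to 1.27). Endothelial-like and mesangial-like cells had the highest levels in both libraries, and their intervals overlapped. Distal convoluted tubule-like cells had 293 CPM in Sham and 168 in IRI24h-TDN, a ratio of 0.571 (0.491 to 0.667), the lowest of the 12. Of the 12 classes, 5 were higher than Sham by more than counting error and 1 was lower, and none passed 2-fold.

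Ddit3 encodes CHOP, a transcription factor made downstream of ATF4 in prolonged ER stress. Its level in podocyte-like cells was 20.8 CPM in Sham (797 UMIs), against 18.0 in IRI24h-TDN (911) and 16.7 in IRI24h-TD (1447). These are 0.867 (0.788 to 0.955) and 0.805 (0.738 to 0.879) of the level in Sham. Monocytic-like cells had 45.4 CPM in Sham and 29.9 in IRI24h-TDN (0.658, 0.505 to 0.866). No class of the 11 measured was higher than Sham by more than counting error, and these 2 were lower. The gene overlaps Mars and Gm4189 on the opposite strand and a further entry, also named Ddit3, on the same strand. The strand rule of the counting was not given in the sources used here, so that reads of these genes may not be fully separated.

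**Figure D2:**
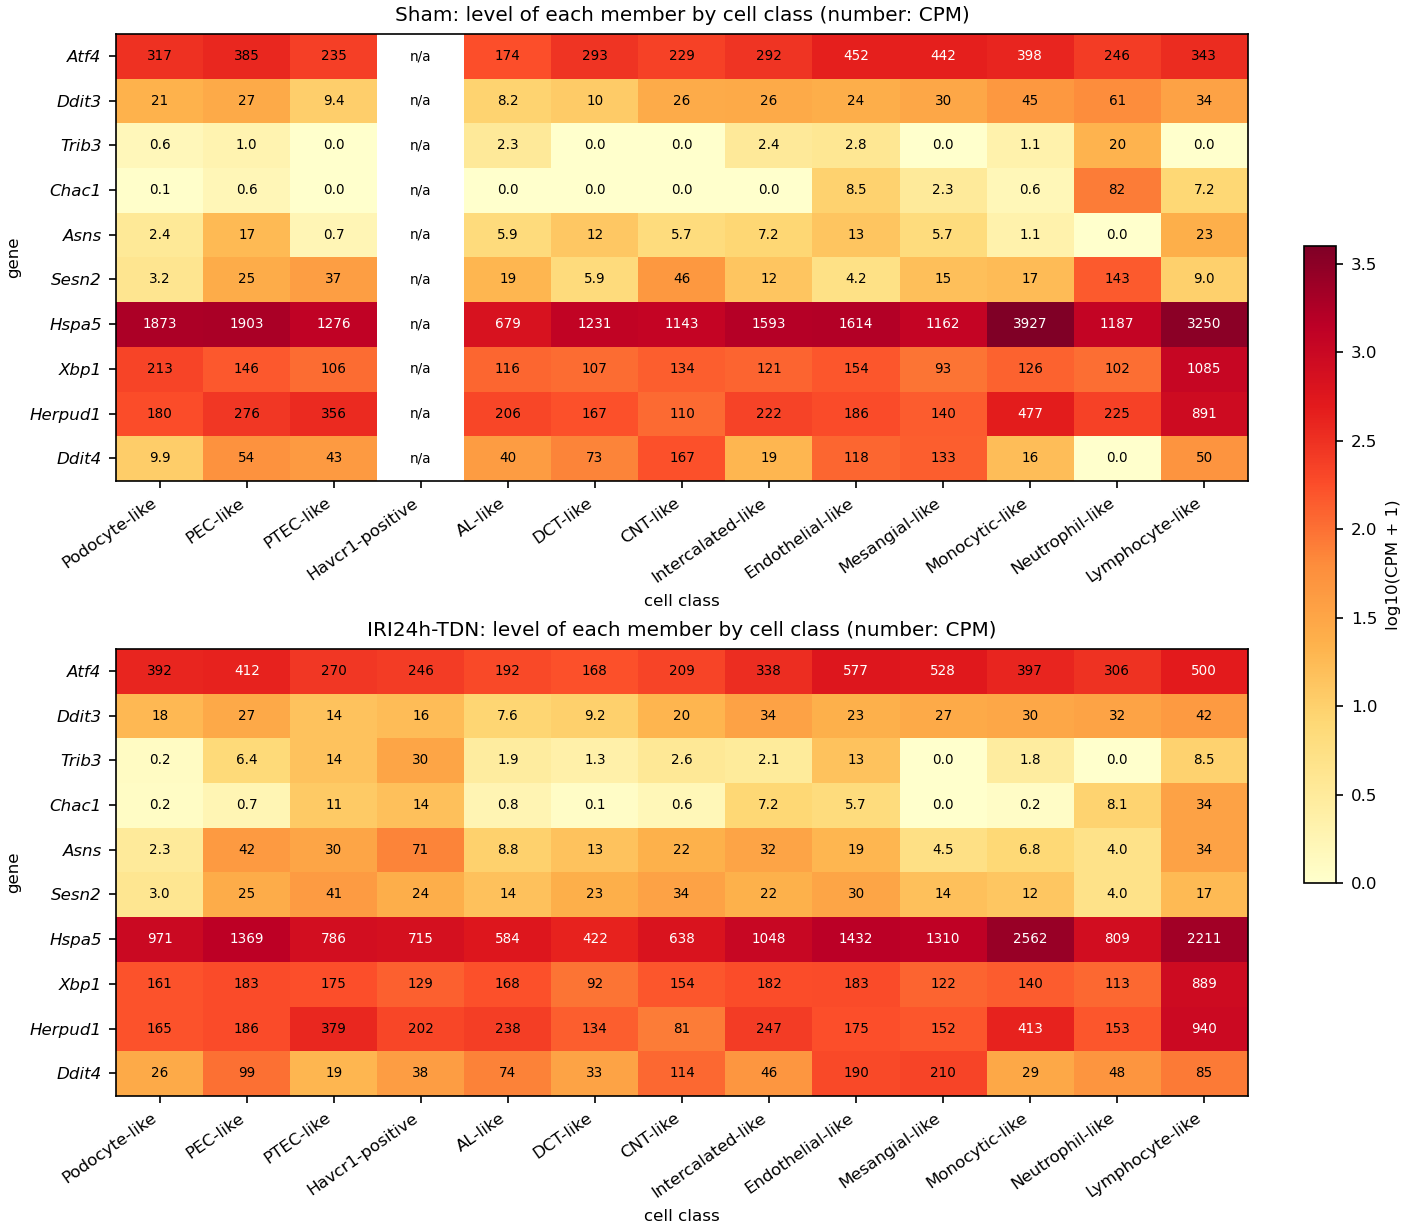
Level in CPM of each member (rows) in each cell class (columns) in Sham (top) and IRI24h-TDN (bottom), with the colour on a log10(CPM + 1) scale and n/a where a class had under 20 cells. Trib3, Chac1 and Asns are near 0 in PTEC-like cells of Sham and reach 30.5, 14.5 and 71.0 CPM in Havcr1-positive cells of IRI24h-TDN, and Hspa5 is lower in the bottom map in every class but mesangial-like cells.

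Asns was the member that passed 2-fold upward in the most classes between IRI24h-TDN and Sham, 4 of the 8 in which it was measured, and podocyte-like cells were not among them. It encodes asparagine synthetase, which makes asparagine from aspartate and is a classical ATF4 target. In PEC-like cells it was at 17.0 CPM in Sham (107 UMIs), against 42.4 in IRI24h-TDN (113) and 38.7 in IRI24h-TD (115). Both libraries after IRI were higher, by 2.49-fold (1.90 to 3.28) and 2.28-fold (1.73 to 2.99). In podocyte-like cells the level was 2.45, 2.29 and 2.36 CPM, and the ratios of 0.936 (0.707 to 1.24) and 0.962 (0.750 to 1.24) lay within counting error.

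Each of the 3 PEC-like clusters had a higher level of Asns after IRI. In the cluster led by Gc, C3 and Sox9 the level was 16.1 CPM in Sham, against 49.1 in IRI24h-TDN and 33.3 in IRI24h-TD. In that led by Tnc, Cp and Wnt16 it was 19.2, 39.0 and 46.2 CPM, and in that led by the cell-cycle genes Top2a and Mki67 14.4, 33.6 and 49.3 CPM, from 5, 20 and 21 UMIs. Of PEC-like cells, 11.6% in Sham and 27.2% in IRI24h-TDN held a UMI of Asns, against 1.44% and 1.77% of podocyte-like cells. With every cell thinned to 2000 UMIs these shares were 2.89% and 7.58%, against 0.419% and 0.452%.

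In PEC-like cells Asns was the 1 member of 9 that passed 2-fold upward in IRI24h-TDN, beside 6.31% of 12210 genes, and none passed downward, beside 11.0%. IRI24h-TD gave 1 of 8 upward, Asns again, beside 4.63% of genes, and none downward, beside 9.68%. Trib3 had 6, 17 and 7 UMIs in these cells (0.953, 6.37 and 2.36 CPM), under the 20 UMIs a call needs, and its ratio in IRI24h-TDN was 6.68 (2.51 to 20.7). Chac1 had 4, 2 and 2 UMIs. Of 16 dissociation and immediate early genes, 1 passed upward and 2 downward in PEC-like cells of IRI24h-TDN, with a median log2 ratio of -0.54, and their part in the level of Asns was not tested. The summed PTEC markers of PEC-like cells, 7315 CPM in Sham and 2007 and 2602 CPM after IRI, also moved with Asns, which was at 0.711 CPM in PTEC-like cells of Sham, and their part was not tested either. Asns loses the call without the limit on mitochondrial UMIs and without correction between libraries, as the closing part gives.

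Asns was also higher in other segments. In intercalated-like cells it was at 7.21 CPM in Sham (15 UMIs) and 31.9 in IRI24h-TDN (151), a 4.42-fold difference (2.596 to 8.09). Connecting tubule-like cells had 5.75 CPM (11 UMIs) and 21.6 CPM (75), or 3.76-fold (1.99 to 7.86), and 28.6 CPM (8 UMIs) in IRI24h-TD. Monocytic-like cells had 2 UMIs in Sham and 45 in IRI24h-TDN, 1.15 and 6.83 CPM, with a ratio of 5.94 (1.55 to 50.6). Ascending limb-like and distal convoluted tubule-like cells had ratios of 1.51 (0.5996 to 4.89) and 1.13 (0.550 to 2.69), within counting error.

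**Figure D3:**
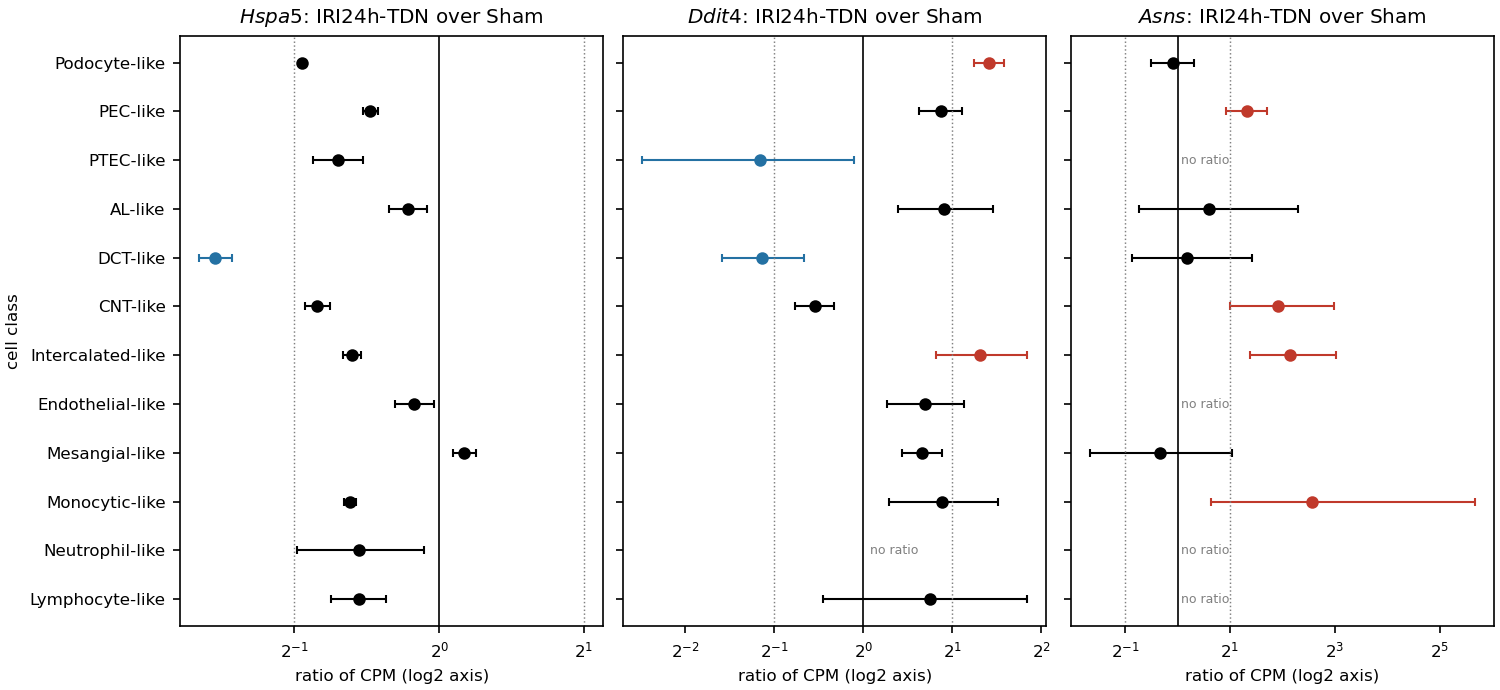
Ratio of the level in IRI24h-TDN to that in Sham for Hspa5, Ddit4 and Asns in each class, on a log2 axis, with exact 95% intervals, red for past 2-fold upward, blue for past 2-fold downward, and "no ratio" where under 20 UMIs were counted or 1 group had none. Hspa5 lies left of 1 in every class but mesangial-like cells, whereas Ddit4 lies on both sides and Asns has no class past 2-fold downward.

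Chac1 encodes an enzyme that breaks down glutathione, and Trib3 a pseudokinase that is induced by ATF4 and CHOP and restrains them. Both had few UMIs in most classes. The highest level of Chac1 in Sham was that of the 21 neutrophil-like cells, 81.9 CPM from 4 UMIs (22.3 to 209.6), and in IRI24h-TDN that of the 23 lymphocyte-like cells, 33.9 CPM from 4 UMIs (9.23 to 86.8), whose interval overlapped that of Havcr1-positive cells. Chac1 was measured between the libraries in 1 class, intercalated-like cells, with 0 UMIs in Sham and 34 in IRI24h-TDN (7.17 CPM, 4.97 to 10.02), at least 4.98-fold higher than the floor of 3 UMIs in Sham, with an exact interval of the ratio that began at 3.83. Intercalated-like cells thus had 3 of 9 members past 2-fold upward, Asns, Chac1 and Ddit4, beside 8.73% of 10631 genes, and none downward, beside 4.94%. Trib3 differed by less there, with 5 and 10 UMIs (2.40 and 2.11 CPM).

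The counts of members past 2-fold in the other classes are given beside those of all genes. Distal convoluted tubule-like cells had 1 of 8 upward (Sesn2), beside 10.6% of 10648 genes, and 2 downward (Hspa5 and Ddit4), beside 4.93%. Connecting tubule-like cells had 1 of 8 upward (Asns), beside 8.15%, and none downward, beside 6.32%. Monocytic-like cells had 1 of 8 upward (Asns), beside 11.3%, and none downward, beside 5.92%. No member passed in ascending limb-like cells (9.65% of all genes upward and 6.58% downward), endothelial-like cells (4.96% and 8.08%) or mesangial-like cells (4.10% and 4.79%). In neutrophil-like cells 0 of 4 passed, beside 984 of 3014 genes upward and 230 downward. In lymphocyte-like cells 0 of 6 passed, beside 148 of 4320 genes upward and 461 downward.

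Ddit4 and Sesn2 encode REDD1 and sestrin 2, which both restrain the growth kinase mTORC1, and both are ATF4 targets. Ddit4 in podocyte-like cells was at 9.92 CPM in Sham (381 UMIs), against 26.3 in IRI24h-TDN (1333) and 26.2 in IRI24h-TD (2264). Both libraries after IRI were higher, by 2.66-fold (2.37 to 2.98) and 2.64-fold (2.36 to 2.95), and they differed from each other by 1.01-fold (0.941 to 1.08). The 2 largest podocyte-like clusters had 9.69, 29.3 and 30.8 CPM and 11.4, 31.2 and 33.5 CPM in Sham, IRI24h-TDN and IRI24h-TD. In the cluster led by Aldh1a1 and Dkk3 the order was the other way, with 21.6, 16.0 and 16.7 CPM in 195, 129 and 269 cells. A UMI of Ddit4 was found in 6.58%, 15.9% and 16.5% of podocyte-like cells, and in 1.94%, 4.94% and 4.93% after thinning.

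In tubule segments Ddit4 went both ways. It was at 18.7 and 46.4 CPM in intercalated-like cells of Sham and IRI24h-TDN (2.48, 1.76 to 3.58) and at 39.8 and 74.5 CPM in ascending limb-like cells (1.87, 1.31 to 2.74). It was lower after IRI in distal convoluted tubule-like cells, at 72.6 and 33.0 CPM (0.454, 0.333 to 0.632), and in connecting tubule-like cells, at 167 and 114 CPM (0.683, 0.588 to 0.795). Connecting tubule markers in distal convoluted tubule-like cells were also lower, at 3494 and 637 CPM, and their part was not tested. Connecting tubule-like cells of IRI24h-TD had 78.6 CPM from 22 UMIs (0.472, 0.291 to 0.726). PEC-like cells were on the other side, at 54.0, 98.6 and 89.2 CPM, with ratios of 1.82 (1.55 to 2.15) and 1.65 (1.40 to 1.94). Over the 11 classes measured, 7 were higher than Sham by more than counting error and 3 lower.

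Some genes that respond to glucocorticoids, which are also known to induce Ddit4, were higher after IRI in podocyte-like cells. Of 7 such genes 4 passed 2-fold upward in IRI24h-TDN and none downward, beside 4.50% and 9.50% of all genes, with a median log2 ratio of 1.37. IRI24h-TD gave 4 and none, beside 4.66% and 10.3%, with a median of 1.44. The kinase gene Sgk1 was at 17.1 CPM in Sham and 187 in IRI24h-TDN, Fkbp5, a cochaperone of the glucocorticoid receptor, at 9.46 and 101 CPM, the transcription factor Zbtb16 at 5.29 and 35.1 CPM, and Tsc22d3 (GILZ) at 70.0 and 181 CPM. Of 9 measured hypoxia genes none passed in podocyte-like cells, with a median of 0.22. Distal convoluted tubule-like cells, where Ddit4 was lower, had 3 of 7 glucocorticoid genes past 2-fold upward, beside 10.6% of all genes, and a median of 0.63. The part of either list in the level of Ddit4 was not tested.

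Sesn2 was nearly equal between libraries in podocyte-like cells, at 3.23, 3.04 and 3.38 CPM, and in PEC-like cells, at 24.6, 25.1 and 24.2 CPM. It passed 2-fold in distal convoluted tubule-like cells, with 4 UMIs in Sham (5.93 CPM) and 166 in IRI24h-TDN (23.1 CPM), a ratio of 3.90 (1.495 to 14.5). Connecting tubule-like cells had 46.0 and 33.8 CPM (0.734, 0.552 to 0.979) and intercalated-like cells 12.5 and 21.7 CPM (1.74, 1.12 to 2.79). In Sham its levels were highest in neutrophil-like cells (143 CPM from 7 UMIs in 21 cells), connecting tubule-like cells and PTEC-like cells (36.9 CPM), the last 2 with overlapping intervals. Sesn2 overlaps the predicted gene Gm12981 on the same strand, so that its counts may include reads of that gene.

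Trib3, Chac1 and Asns were at or near 0 in PTEC-like cells of Sham and well above it in Havcr1-positive cells of IRI24h-TDN, while Hspa5 was lower there than in Sham. The 37 PTEC-like cells of IRI24h-TDN below the Havcr1 cut also held these genes, as given below. The 1032 PTEC-like cells of Sham held 0 UMIs of Trib3, 0 of Chac1 and 6 of Asns (0.711 CPM) among 8435885 UMIs. For ratios a count of 0 was replaced by a floor of 3 UMIs, or 0.356 CPM. The 159 Havcr1-positive cells of IRI24h-TDN held 103 UMIs of Trib3 (30.5 CPM, 24.9 to 37.0), 49 of Chac1 (14.5 CPM, 10.7 to 19.2) and 240 of Asns (71.0 CPM, 62.3 to 80.6). Against that floor of 3 UMIs, Trib3 was at least 85.7-fold and Chac1 at least 40.8-fold higher, and the exact intervals of their ratios to Sham, which add the counting error of the higher group, began at 68.45 and 31.92. Asns was 99.8-fold higher (45.2 to 275). These ratios set cells of several classes against PTEC-like cells alone. Of the 159 cells, 55 lay in PEC-like and 10 in ascending limb-like clusters. PEC-like cells of Sham already held 17.0 CPM of Asns, beside 55.9 CPM in those 55 cells. Hspa5 was at 1276 CPM in PTEC-like cells of Sham and 715 in Havcr1-positive cells of IRI24h-TDN (0.560, 0.536 to 0.585), Herpud1 at 356 and 202 CPM (0.566, 0.520 to 0.615) and Sesn2 at 36.9 and 24.0 CPM (0.650, 0.503 to 0.833). Atf4 itself was at 235 and 247 CPM, a ratio of 1.049 (0.966 to 1.14), and Ddit3 at 9.37 and 16.0 CPM, a ratio of 1.71 (1.18 to 2.44).

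Of the 10 members 3 passed 2-fold upward in that comparison, beside 20.4% of 11647 genes, and none downward, beside 14.1%. Within IRI24h-TDN, Havcr1-positive cells against the 37 other PTEC-like cells gave 3 of 10 upward, beside 17.1% of 9930 genes, and none downward, beside 2.06%. These were Trib3 (2.23, 0.927 to 7.02), Asns (2.37, 1.30 to 4.80) and Ddit4 (2.01, 0.9498 to 5.11), from 5, 11 and 7 UMIs in the 37 cells, and the intervals of Trib3 and Ddit4 include 1. None of the 3 passed without cells over 20% mitochondrial UMIs or without the highest doublet scores, and the direction of Ddit4 turned under both. With DESeq2 size factors none passed upward and Herpud1 passed downward, and with Havcr1-positive cells taken from 1 UMI the log2 ratio of Trib3 turned to -0.450. The same 37 cells against PTEC-like cells of Sham gave none of 7 upward, beside 4.69% of 10854 genes, and 1 downward, Ddit4, beside 14.0%. Ddit4 was there at 42.7 CPM in Sham (360 UMIs) and 19.1 in IRI24h-TDN (7), a ratio of 0.448 (0.179 to 0.932), and its direction turned with at least 500 genes per cell. These 37 cells also held 5 UMIs of Trib3, 4 of Chac1 and 11 of Asns, too few for a call.

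Havcr1-positive cells were deeper than other cells, with a median of 19360 UMIs in IRI24h-TDN against 6926 in PTEC-like cells of Sham and 9529 in those of IRI24h-TDN, and their median mitochondrial share was 14.4%, against 17.8% and 21.8%. A UMI of Trib3 was found in 14.5% of them, or 3.82% after thinning, against 0.226% and 0.0508% of podocyte-like cells of the same library. For Chac1 the shares were 9.43% and 2.16%, and for Asns 41.5% and 10.8%, against 0.151% and 0.0359%, and 1.77% and 0.452%, of podocyte-like cells. All 16 PTEC markers were found in the Havcr1-positive cells, at a summed 8302 CPM, with PEC markers at 2062 CPM and podocyte markers at 1243 CPM. The part of depth and of other cell types in these levels was not tested.

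The UMIs of Trib3 and Chac1 were held by few of these cells. Trib3 was found in 23 of 159 cells, 63.1% of its UMIs in 5 cells and 32 UMIs in 1 cell. Chac1 was found in 15 cells, with 73.5% of its UMIs in 5 of them, whereas Asns was found in 66 cells with 27.5% in 5. All 15 cells with Chac1 also held Asns, as did 51 of the 144 cells without Chac1, but the former had a median depth of 30890 UMIs and the latter 19030. Of the 23 cells with Trib3, 9 held Chac1 and 17 held Asns, against 6 and 49 of the 136 cells without it, at median depths of 19480 and 19130 UMIs. Median depth was nearly equal in the cells with and without Trib3, and unequal in those with and without Chac1. The part of depth and of cluster makeup in these shares was not tested.

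By cluster, 90 Havcr1-positive cells of IRI24h-TDN lay in PTEC-like clusters and 55 in PEC-like clusters. Trib3 was at 48.5 CPM (84 UMIs) in the former and 11.5 CPM (16 UMIs) in the latter, Chac1 at 17.3 and 13.6 CPM, and Asns at 91.8 and 55.9 CPM. All 19 UMIs of Chac1 in the 55 cells came from 3 of them. Ddit4 went the other way, with 19.1 CPM in the 90 cells and 61.6 in the 55. The 61 Havcr1-positive cells of IRI24h-TD, 27 in PTEC-like and 34 in PEC-like clusters, had 6 UMIs of Trib3 (5.14 CPM), 4 of Chac1 (3.42 CPM) and 51 of Asns (43.7 CPM). IRI24h-TDN was thus higher than IRI24h-TD by 5.93-fold (2.64 to 16.5), 4.23-fold (1.55 to 16.2) and 1.63-fold (1.20 to 2.25), while Hspa5 was at 715 and 797 CPM (0.897, 0.831 to 0.968). These intervals leave out differences between cells, and 1 cell of IRI24h-TDN held 32 of its 103 UMIs of Trib3. In IRI24h-TD the 18 cells of PTEC-like clusters with 3 to 29 Havcr1 UMIs had a median of 1298 UMIs. The part of cluster makeup and depth was not tested.

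**Figure D4:**
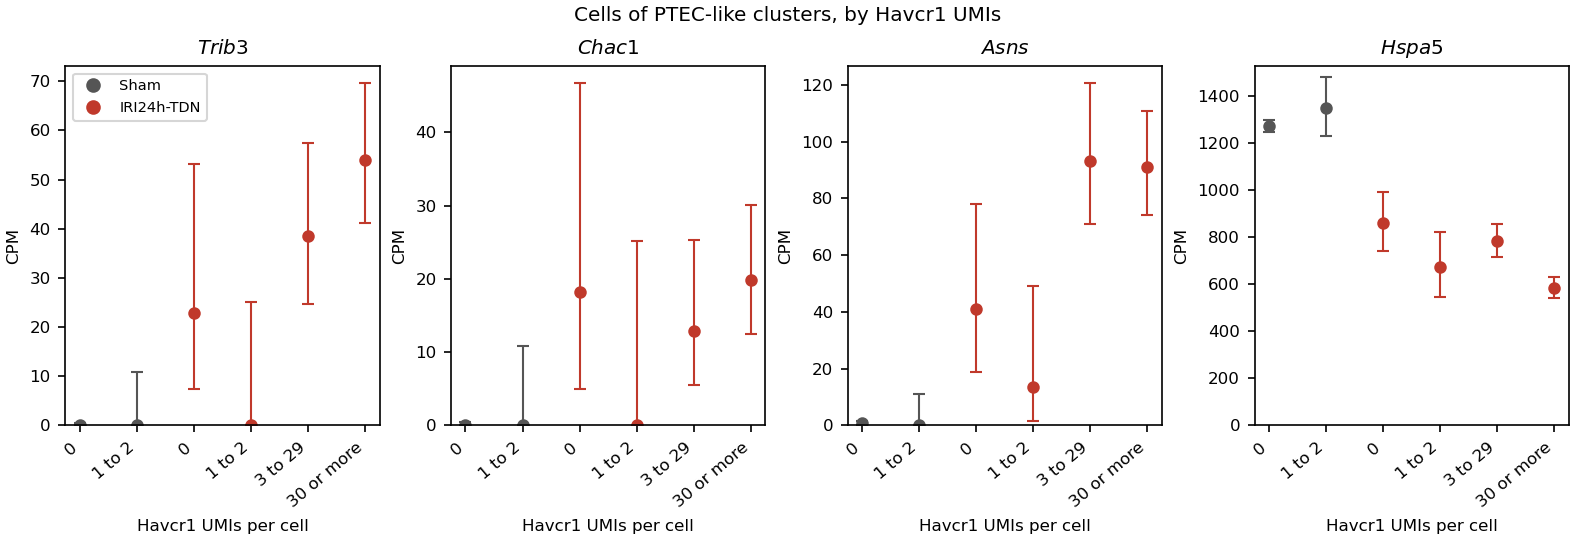
Level in CPM of Trib3, Chac1, Asns and Hspa5 in cells of PTEC-like clusters, split by the UMIs of Havcr1 per cell, for Sham (grey) and IRI24h-TDN (red), with exact 95% intervals for counting error and axes from 0. Trib3 and Asns are at or near 0 in both groups of Sham and highest in the 2 groups of IRI24h-TDN with 3 or more Havcr1 UMIs, and Hspa5 is lower in all 4 groups of IRI24h-TDN than in Sham. For Trib3, Chac1 and Asns, the interval of IRI24h-TDN cells without Havcr1 overlaps those of both groups with 3 or more.

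Within PTEC-like clusters of IRI24h-TDN the cells were split by their Havcr1 UMIs. With no Havcr1 (22 cells) Trib3 was at 22.8 CPM, with 1 to 2 UMIs (15 cells) at 0, with 3 to 29 (48 cells) at 38.6 (24.7 to 57.4), and with 30 or more (42 cells) at 54.1 (41.3 to 69.6). Asns was at 41.0, 13.6, 93.3 and 91.0 CPM and Hspa5 at 861, 674, 783 and 584 CPM in the same order. Chac1 was at 18.2, 0, 12.9 and 19.8 CPM. The intervals of Trib3 in the last 2 groups overlapped, and the first 2 groups rest on few cells. In the 22 cells without Havcr1 the intervals were 7.40 to 53.2 CPM for Trib3, 4.97 to 46.7 for Chac1 and 18.8 to 77.9 for Asns. Each of these overlapped the intervals of the same gene in the last 2 groups. In Sham, cells without Havcr1 (1000) and with 1 to 2 UMIs (32) had no UMI of Trib3 or Chac1, and 0.741 and 0 CPM of Asns.

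The other genes of the response, taken as whole lists, were set against PTEC-like cells of Sham in the same way. Of 17 measured genes for amino acid synthesis and transport 11 passed 2-fold upward and 3 downward in Havcr1-positive cells of IRI24h-TDN, with a median log2 ratio of 1.88 against 0.23 over all genes, of which 20.4% passed upward and 14.1% downward. The counts of every list below are to be set beside those shares. Of 20 cytosolic tRNA synthetases 12 passed upward and none downward, with a median of 1.34. Of 19 ER chaperones and folding enzymes none passed upward and 3 downward, with a median of -0.37. The eIF2alpha kinases, their substrate and its phosphatases had 2 of 7 upward (median 0.62), the ER stress sensors none of 6 (0.23), other stress transcription factors 3 of 9 upward (0.54) and secreted stress factors 1 upward and 1 downward of 4 (0.56). ER degradation and export genes had 2 upward and 3 downward of 18 (0.09), other sestrin and Redd genes 1 of 3 upward (0.63), glucocorticoid genes 1 upward and 1 downward of 7 (-0.21), hypoxia genes 3 upward and 1 downward of 9 (-0.12), and dissociation and immediate early genes 4 upward and 2 downward of 16 (0.04).

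Against the 37 PTEC-like cells of IRI24h-TDN, the list genes with the largest ratios in either direction went both ways in Havcr1-positive cells of that library, where 17.1% of all genes passed upward and 2.06% downward. Phgdh, the first enzyme of serine synthesis, was at 32.3 CPM against 8.19, and it alone of 16 amino acid genes passed. Among tRNA synthetases, 5 of 20 passed upward, and Mars was at 15.4 against 2.73 CPM, Wars at 30.8 against 5.46, Vars at 41.4 against 13.7 and Lars at 72.8 against 24.6 CPM. Nupr1, a small stress-induced regulator, was at 65.4 against 10.9 CPM, Atf3 at 455 against 213 CPM, and Eif2s1, which encodes eIF2alpha itself, at 148 against 57.3 CPM. Of the ER genes, Edem2 was at 17.2 against 2.73 CPM, Sec24d at 20.1 against 5.46 and Sdf2l1 at 20.4 against 5.46, all called upward. The chaperone gene Hyou1 was lower, at 14.2 against 21.8 CPM, and was not called. The hypoxia gene Egln3 was called upward, at 15.4 against 2.73 CPM. On the other side, the eIF2alpha kinase gene Eif2ak4 was at 7.69 against 19.1 CPM, Cbs at 13.0 against 27.3, Sesn1 at 5.62 against 10.9 and Bnip3 at 37.9 against 73.7 CPM, and none of these 4 was called. Several values of this paragraph rest on 1 to 5 UMIs in the 37 cells.

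In podocyte-like cells the same lists went otherwise, as the plot of list genes shows. Amino acid genes had 2 of 18 past 2-fold upward and 3 downward in IRI24h-TDN, beside 4.50% and 9.50% of all genes, with a median of -0.25. Psat1, an enzyme of serine synthesis, was at 2.79 CPM in Sham and 36.2 in IRI24h-TDN, and the cystine transporter gene Slc7a11 had 4 and 29 UMIs, while Pycr1, an enzyme of proline synthesis, had 41 and 23 UMIs and Cbs, an enzyme of transsulphuration, 48 and 1. The tRNA synthetases had none of 20 past 2-fold (median -0.11). Ppp1r15a (GADD34), which directs the phosphatase to eIF2alpha, was at 124 CPM in Sham and 269 in IRI24h-TDN and was the 1 of 7 genes of its list to pass (median 0.14). Of 9 other stress transcription factors Cebpb passed, at 115 and 253 CPM (median -0.04), and Atf3 was at 367 and 704 CPM, a ratio of 1.92.

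The remaining lists in podocyte-like cells held few genes past 2-fold, to be set beside 4.50% of all genes upward and 9.50% downward. Of 5 secreted stress factors Stc2 passed, downward, at 5.26 and 1.90 CPM (median -0.35), and of 3 other sestrin and Redd genes Ddit4l, downward, with 43 and 16 UMIs (median -0.21). Dissociation and immediate early genes had 3 of 16 upward, Zfp36, Socs3 and Ier3, and 2 downward, among them Hspa1a, at 344 and 134 CPM (median 0.27). In PEC-like cells of IRI24h-TDN, 2 of 20 tRNA synthetases passed upward, beside 6.31% of all genes, with a median of 0.54 against 0.01 over all genes. The 19 chaperones had none in either direction there and a median of -0.23. Monocytic-like cells had 7 of 20 tRNA synthetases and 6 of 14 amino acid genes past 2-fold upward, and none downward, with medians of 0.94 and 0.84 against 0.15, beside 11.3% of all genes upward and 5.92% downward.

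**Figure D5:**
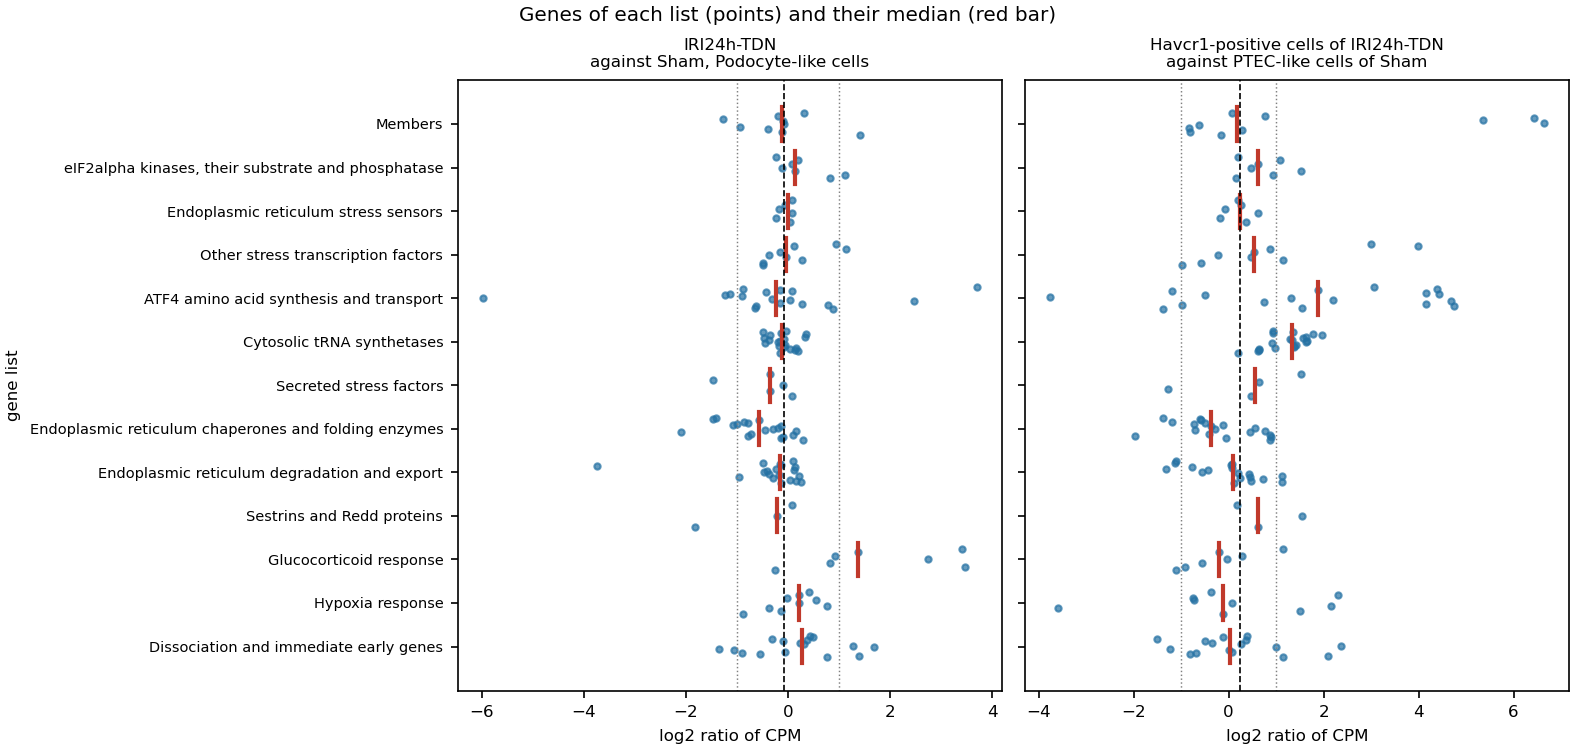
Log2 ratio of each gene (point) by list (row), with the list median as a red bar, the median of all genes as a dashed line and 2-fold as dotted lines, for podocyte-like cells of IRI24h-TDN against Sham (left) and Havcr1-positive cells of IRI24h-TDN against PTEC-like cells of Sham (right). A gene without UMIs in 1 group is drawn at its ratio to a floor of 3 UMIs in that group, as are Trib3 and Chac1 in the right panel, and the median of the chaperones lies left of the dashed line in both panels, while the medians of the amino acid genes and tRNA synthetases lie right of it in the right panel and left of it in the left panel.

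Likeness between genes was described by Pearson's r of log2(CPM + 10) over 27 groups of class and library with at least 50 cells, among 13335 genes, and the groups share their 3 libraries. The pattern of Asns was most like those of 2610524H06Rik (0.828), the seryl-tRNA synthetase gene Sars (0.828) and S100a10 (0.821). Hspa5 was most like Fnbp4 (0.875), Pds5a (0.853) and Sdf2l1 (0.840), Atf4 like Hnrnph1 (0.913), Zfp131 (0.905) and Ddx3x (0.904), and Ddit3 like Chd2 (0.826), Kdm6b (0.823) and Elmsan1 (0.797). Trib3 was most like Gsta1 (0.782), Eda2r (0.780) and Rpf1 (0.722), and Chac1 like Ppp1r16b (0.684), Fgg (0.664) and the member Trib3 (0.663). Xbp1 was most like Pycr1 (0.897), Lck (0.883) and Igkv6-32 (0.846), and Herpud1 like Rhoh (0.805), P2ry10 (0.792) and Ptpn22 (0.790). Sesn2 was most like Samd9l (0.768), Carmil1 (0.754) and Fam149a (0.741), and Ddit4 like Tspan9 (0.797), Ier5l (0.770) and Traf5 (0.758). Among pairs of members the highest values were those of Ddit3 with Hspa5 (0.755), Atf4 with Ddit3 (0.688) and Trib3 with Chac1 (0.663), and the lowest that of Herpud1 with Ddit4 (-0.401).

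Summed over whole libraries, some members differed in order from podocyte-like cells. Asns was at 4.78 CPM in Sham, against 10.7 in IRI24h-TDN and 4.49 in IRI24h-TD, and Trib3 at 0.692, 2.20 and 0.549 CPM. Sesn2 was at 12.6, 10.48 and 4.71 CPM, and Ddit4 at 30.3, 43.8 and 29.5 CPM. Podocyte-like cells were 57.1%, 58.7% and 93.6% of the kept cells in the 3 libraries and had low levels of Asns, Trib3, Sesn2 and Ddit4, and the makeup of a library cannot be told apart from its condition in such sums. Hspa5, at 1791, 1039 and 948 CPM, had the same order in whole libraries as in podocyte-like cells.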

How the data were processed

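The authors deposited 1 table of UMI counts per library, raw and per gene, from BD Rhapsody single-cell capture. The submitters' processing notes name CASAVA 1.8, UMI-tools, Seurat and mm10, and the strand rule of the counting was not given in the sources used here. Barcodes with at least 200 genes and at most 50% mitochondrial UMIs were kept. Counts were scaled to 10000 per cell, and 2000 variable genes (without the members, the listed genes, Havcr1, mitochondrial, ribosomal and haemoglobin genes) gave 30 components, which were corrected between libraries with Harmony and clustered by Leiden at resolution 1 with 15 neighbours (scanpy 1.11.5, leidenalg 0.10.2). Clusters were named from marker lists. UMIs were then summed per class and library, with exact Poisson intervals and exact conditional intervals of ratios (scipy 1.17.1). Doublets were left in, and an alternative left out the 6% of cells with the highest doublet scores. Shares were also given after thinning to 2000 UMIs, leaving out shallower cells. No p-value was computed, since each condition had 1 library. Scaling by edgeR 4.0.16 (TMM) and DESeq2 1.42.0 (size factors) served as alternatives. The calculation of ratios was checked on simulated data. The members and the 12 gene lists were chosen with earlier results of these data known. From each list up to 4 genes were named, those with the largest log2 ratio in either direction between IRI24h-TDN and Sham in podocyte-like cells, and likewise between Havcr1-positive and PTEC-like cells of IRI24h-TDN, among genes with at least 20 UMIs, and for likeness the 3 genes of highest r.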

Additional observations from a re-analysis of the deposited data

Results flagged for a closer look

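Ddit4 was picked out because its ratio to Sham lay on opposite sides of 1 in glomerular and connecting tubule-like cells in both libraries after IRI. In podocyte-like cells the ratio was 2.655 in IRI24h-TDN and 2.635 in IRI24h-TD, and in PEC-like cells 1.824 and 1.651. In connecting tubule-like cells it was 0.6834 and 0.4715, the latter from 22 UMIs in 29 cells. All ratios share the Sham library, and the difference between classes was not tested, since each condition had 1 library.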

How the results depend on the processing

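No paired analysis was possible because each condition had 1 library. Over single members and settings, 145 values moved beyond counting error of the value reported, 56 of them shares thinned to 2000 UMIs, and 11 turned direction, and the cause was not tested. In podocyte-like cells the 2 members past 2-fold became 1 in IRI24h-TDN with at least 50 UMIs or without the cell with most UMIs, and 1 in IRI24h-TD with at least 50 UMIs. In PEC-like cells of IRI24h-TDN the 1 member, upward, became 0 without the mitochondrial limit or without correction between libraries. It became 2 upward with at least 1 UMI, a fold of 1.5 or equal weight for every cell. With Havcr1-positive cells kept in their class it became 3 upward. In the cluster led by Cp and Wnt16 alone, an alternative chosen after seeing the data, it became 2 upward and 1 downward. In PTEC-like cells the 1 member, downward, became 2 downward with TMM scaling and 0 with equal weights. It became 1 upward and 2 downward with a fold of 1.5. With at least 1 UMI, or with Havcr1-positive cells kept in, the 4 members were 3 upward and 1 downward. TMM there shifted every log2 ratio by -0.47 and DESeq2 size factors by -0.11. For Havcr1-positive against PTEC-like cells of IRI24h-TDN, where DESeq2 shifted by -0.27, the 3 members became 1 with at least 500 genes, without correction, at Leiden resolution 0.5 or 2 or with DESeq2 size factors (1 downward), and 0 with at most 20% mitochondrial UMIs or without the top 6% of doublet scores. The log2 ratio of Ddit4 in PTEC-like cells turned to 0.012 with at least 500 genes and 0.0923 without top doublet scores. That of Ddit4 in Havcr1-positive cells turned to -0.0154 with at least 500 genes, -0.185 with at most 20% mitochondrial UMIs, -0.190 without top doublet scores, -0.0233 without correction, -0.127 at both other resolutions, -0.150 against Sham and -0.0039 in PTEC-like clusters alone, chosen after seeing the data. That of Trib3 turned to -0.450 with Havcr1-positive cells taken from 1 UMI. Counting depth limits Trib3 and Chac1 in every class outside Havcr1-positive cells, and in the Havcr1-positive cells of IRI24h-TD, with 6 and 4 UMIs. In Havcr1-positive cells of IRI24h-TDN, 5 cells held 63.1% of the UMIs of Trib3, and 5 held 73.5% of those of Chac1. The 37 PTEC-like cells of IRI24h-TDN limit each comparison with them.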
